A study of Drosophila melanogaster with 6 samples.

Results

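LARK is an RNA-binding protein of Drosophila with RNA recognition motifs and a retroviral-type zinc finger, and it belongs to the output side of the circadian clock. RNA-binding proteins act on a transcript after it is made, from the choice of its exons to the moment a ribosome reads it. Several are classical markers or regulators of fly neurons, among them the ELAV family. The genes described here are lark itself and 9 genes for RNA-binding proteins known from the fly nervous system: elav, fne, Rbp9, pum, mub, Syp, qkr58E-3, bru3 and Fmr1. They were chosen by name, and their probe sets were those to which the array annotation gives the symbol. This found 10 probe sets of 9 of the genes, out of 13966 probe sets on the array that are not controls, of which 12443 carry a single gene symbol. No probe set was annotated to bru3.

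The RNA came from adult heads of flies of both sexes, reared at 25°C in 12 h of light and 12 h of darkness and frozen at ZT6 (6 h into the light phase). In the LARK overexpression group, elav-gal4, which drives expression in all neurons, was combined with 1 copy of a uas-lark transgene. Mothers carrying elav-gal4 were crossed to uas-lark males for this group and to w1118 males for the control, so both groups carry the driver and the control lacks the transgene. Males are described as elav-gal4 and females as elav-gal4/+ in both groups. The sources used here do not say which insertions of the driver and the transgene were used, how many flies were pooled, or in which ratio of the sexes. The design text of the series states that each genotype gave 1 RNA extract, from which labeling and hybridization were repeated to fill 3 arrays. The tests therefore compare 1 RNA sample with 1 other against the spread of labeling and hybridization, and leave out the spread between flies.

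The 3 arrays per genotype are numbered 1 to 3, and those sharing a number also shared the hybridization day and the scaling. Their 2% trimmed mean signals were 150, 85.0 and 100 at replicates 1, 2 and 3, so a signal is best read against the array of the same number. Across 9432 probe sets above a signal of 40 on at least 1 array, LARK overexpression arrays correlated with each other at 0.877 to 0.946 and control arrays at 0.921 to 0.931, and LARK overexpression array 1 correlated better with control array 1 (0.912) than with the other arrays of its genotype (0.877 and 0.892). RNA quality can be read from the 3′ probes of control transcripts relative to their 5′ probes, and for eIF-4a this ratio was 6.05 to 6.52 with LARK overexpression against 2.81 to 3.02 in the control. For the actin control the ratios were 5.51 to 6.21 and 1.89 to 3.41, and for the GAPDH control they overlapped, at 3.23 to 5.06 and 2.82 to 4.04. Head markers were present in both groups: the photoreceptor genes trp and Arr2 read at least 1657 and 5805 on every array, and the glial gene repo at least 91.7.

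None of the RNA-binding protein genes passed the test at an adjusted p under 0.05 (limma, Benjamini-Hochberg over 9432 probe sets). For comparison, 146 of the 9432 probe sets passed, which is 1.55%, with 32 higher (0.339%) and 114 lower (1.21%) with LARK overexpression, or 11 and 117 when each array was centered on its median. Within the group, lark and qkr58E-3 lay near 0, fne lay above 0, elav had no steady direction, and Rbp9, pum, mub, Syp and Fmr1 were lower with LARK overexpression at every replicate number. The largest difference was that of pum, and the differences by replicate lay closest together for Rbp9. A test that is not passed does not show that the levels were alike, so the intervals are given with each gene. The plot of signals by array shows each value.

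**Figure D1:**
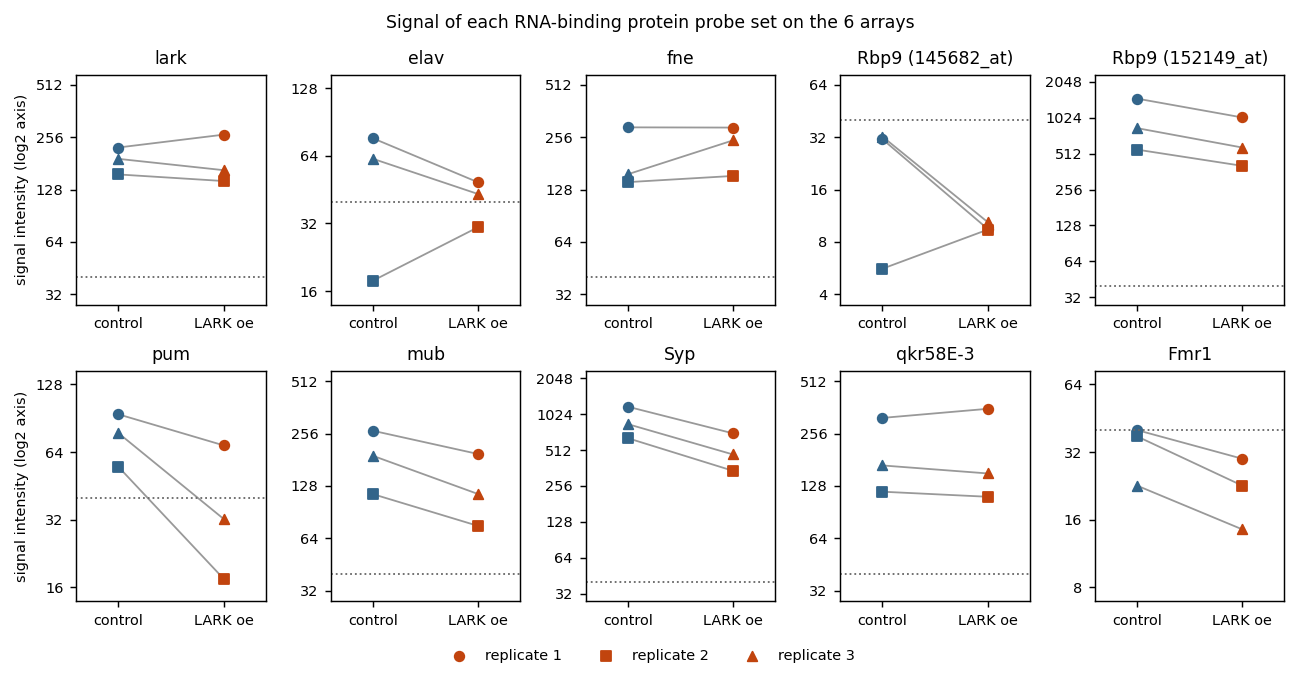
Signal intensity (log2 axis) of the 10 probe sets on the 3 control and 3 LARK overexpression (LARK oe) arrays. Marker shapes give the replicate number, grey lines join arrays of the same number, and the dotted line marks a signal of 40. Lines of Rbp9 (152149_at), pum, mub, Syp and Fmr1 all slope down, those of lark and qkr58E-3 go both ways, and Rbp9 (145682_at) stays below 40.

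The overexpressed gene, lark, is covered by probe set 154925_at. It read 265, 143 and 166 on LARK overexpression arrays 1, 2 and 3, and 224, 156 and 192 on the control arrays of the same numbers. The genotypes overlapped: lark was higher with LARK overexpression on replicate 1 and lower on replicates 2 and 3. The means were 191 ± 64.8 and 191 ± 33.6 (SD, n = 3 arrays each). The log2 difference was -0.03 (limma, SE 0.45, adjusted p = 0.9993), with a 95% confidence interval from -0.99 to 0.93, which is 0.503- to 1.90-fold. With centered arrays the difference was 0.09 and the interval ran from -0.36 to 0.54, or 0.782- to 1.45-fold. A rise of the lark signal by 2-fold or more thus lies outside both intervals. The sources used here do not say where in the transcript the probes of this set lie. Whether this signal includes transcripts of the transgene, and so whether it checks the genotype labels, was not tested. LARK protein was not measured on these arrays.

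Among 4751 other probe sets with a single gene symbol and a signal above 40 on all 6 arrays, the 3 whose centered values followed lark most closely were those of Rab14 (r = 0.971), CG1227 (r = 0.970) and Git (r = 0.967). Rab14 encodes a small GTPase of vesicle traffic, and Git a GTPase-activating protein for Arf. These correlations are over 6 arrays that share 3 days and, by the series text, 2 RNA samples. They are also the top of a large search, so they only describe these arrays. Like lark, the 3 genes had log2 differences near 0, at 0.07, 0.00 and -0.03.

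ELAV, FNE and RBP9 form the fly's ELAV family, related to the Hu proteins of vertebrates. ELAV is a nuclear protein of neurons that controls alternative splicing and 3′ end choice, FNE (found in neurons) is largely cytoplasmic, and RBP9 is found in adult neurons and in the female germ line. Probe set 154632_at of elav was dim, at 48.7, 30.8 and 43.2 with LARK overexpression and 76.5, 17.8 and 62.0 in the control. Its direction changed with the replicate: elav was lower on replicates 1 and 3 and higher on replicate 2, where both arrays lay under 40. The log2 difference was -0.13 (limma, SE 0.55, interval from -1.28 to 1.03, adjusted p = 0.9993), and 0.00 with centered arrays. Both groups carry elav-gal4, so the driver itself does not separate them.

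The signal of fne, at probe set 144973_at, was 291, 153 and 246 on the LARK overexpression arrays and 292, 141 and 157 on the control arrays. The genotypes overlapped, and the arrays of replicate 3 carried most of the difference, with log2 differences of 0.00, 0.12 and 0.65 at replicates 1, 2 and 3. Over all 3, fne had the highest difference of the group, at 0.25 (limma, SE 0.48, interval from -0.75 to 1.26, adjusted p = 0.9993) and 0.38 with centered arrays. On centered arrays it was the single gene of the group that was higher at all 3 replicate numbers, as 26.6% of the 9432 probe sets were.

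For Rbp9 the array holds 2 probe sets, and 1 of them was above 40. This one, 152149_at, read 1028, 404 and 576 with LARK overexpression and 1478, 553 and 837 in the control. Within each replicate number the LARK overexpression array was the lower one, by 0.52, 0.45 and 0.54 on the log2 scale. The difference over all 3 was -0.51 (limma, SE 0.51, adjusted p = 0.9993) with an interval from -1.59 to 0.58. When the replicate number was added as a block, the interval ran from -0.96 to -0.05 (unadjusted p = 0.0356, adjusted p = 0.213). The other probe set, 145682_at, was below 40 on all arrays and was not tested. It read 9.50, 9.40 and 10.4 with LARK overexpression and 31.2, 5.60 and 32.3 in the control, so it was lower on replicates 1 and 3 and higher on replicate 2. The pair of Rbp9 probe sets therefore shared their direction on replicates 1 and 3 alone.

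Pumilio, encoded by pum, binds a short motif in the 3′ untranslated region of its targets and represses their translation, in neurons as in the embryo. Probe set 143315_at read 68.6, 17.5 and 32.3 with LARK overexpression and 94.3, 55.1 and 77.8 in the control. It was lower at every replicate number, by 0.46, 1.65 and 1.27 on the log2 scale. Although LARK overexpression array 1 still exceeded control array 2 as deposited, the genotypes did not overlap on centered arrays, where 12.2% of the 9432 probe sets likewise lay lower without overlap. The log2 difference of pum was -1.13 (limma, SE 0.52, interval from -2.24 to -0.02, unadjusted p = 0.0466, adjusted p = 0.449). It was the single gene of the group over 2-fold, as were 12.8% of all 9432 probe sets, and the single one with an unadjusted p under 0.05 in that fit, as were 10.8% (7.43% lower and 3.38% higher). Because the arrays with LARK overexpression at replicates 2 and 3 were under 40, the size of the difference is uncertain, and with values under 40 set to 40 it was -0.63. Without LARK overexpression array 1, pum had a log2 difference of -1.29 on centered arrays and passed (adjusted p = 0.0436 from limma), and of -1.64 as deposited without passing (adjusted p = 0.0656). Without LARK overexpression array 2, on which pum was lowest, the differences were -0.70 on centered arrays (adjusted p = 0.304) and -0.65 as deposited (adjusted p = 0.9997).

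Fmr1 encodes the fly counterpart of the fragile X protein FMRP, a KH-domain and RGG-box protein that represses translation at synapses. Its probe set, 144251_at, was dim in both groups, with 29.9, 22.7 and 14.5 for LARK overexpression and 40.1, 37.6 and 22.7 for the control. Fmr1 entered the test only through control array 1. It was lower with LARK overexpression by 0.42, 0.73 and 0.65 on the log2 scale at replicates 1, 2 and 3, and the genotypes overlapped. The difference over all 3 was -0.60 (limma, SE 0.47, interval from -1.59 to 0.40, adjusted p = 0.883), and 0.00 with values under 40 set to 40.

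Syncrip, the product of Syp, is the fly counterpart of the hnRNP protein SYNCRIP, which regulates synaptic transcripts at the larval neuromuscular junction. At probe set 153074_at, Syp read 706, 343 and 470 with LARK overexpression and 1181, 644 and 844 in the control. Each LARK overexpression array was lower than the control array of its number, by 0.74, 0.91 and 0.84 on the log2 scale. The genotypes did not overlap on centered arrays and overlapped as deposited, where LARK overexpression array 1 exceeded control array 2. Syp had a log2 difference of -0.83 (limma, SE 0.47, interval from -1.82 to 0.16, adjusted p = 0.624), or 0.562-fold. Centering gave -0.71 (interval from -1.13 to -0.28, unadjusted p = 0.00599, adjusted p = 0.111). A replicate block left the adjusted p at 0.122, and the block with an intensity trend and a robust prior brought it to 0.0175, which made Syp the single gene of the group to pass there, as did 6.05% of all 9432 probe sets. Without LARK overexpression array 1 the centered difference was -0.76 (adjusted p = 0.0728).

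Mushroom-body expressed, mub, is a KH-domain protein of the poly(C)-binding kind. Probe set 154611_at read 195, 75.3 and 115 on the LARK overexpression arrays and 266, 115 and 191 on the control arrays. The differences by replicate were -0.44, -0.61 and -0.73, all lower with LARK overexpression, while the groups as a whole overlapped. Over all arrays the log2 difference was -0.60 (limma, SE 0.50, adjusted p = 0.923), with an interval from -1.66 to 0.47, and from -1.07 to -0.12 with the block.

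The gene qkr58E-3, also known as kep1, encodes a STAR protein, a KH-domain family that links signaling to splicing. Its probe set, 141202_at, read 356, 111 and 151 with LARK overexpression and 316, 119 and 168 in the control. As with lark, the LARK overexpression array was the higher one on replicate 1 and the lower one on replicates 2 and 3. The log2 difference was -0.03 (limma, SE 0.53, interval from -1.16 to 1.11, adjusted p = 0.9993), and 0.10 with centered arrays.

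The CELF-type protein gene bru3 has no probe set by symbol. The study's list of RNAs that co-precipitated with LARK in its first experiment places bru-3 beside a probe set that carries no symbol in the annotation used here, so its identity rests on that list. It read 368, 180 and 283 with LARK overexpression and 239, 152 and 202 in the control. At all 3 replicate numbers it was higher with LARK overexpression, as were 17.6% of the 9432 probe sets. Its log2 difference was 0.45 (limma, SE 0.46, adjusted p = 0.9993) and, on centered arrays, 0.57 (limma, unadjusted p = 0.0264, adjusted p = 0.196). On centered arrays 1857 of the 9432 had an unadjusted p under 0.05. The lists also name fne in the first experiment, at the probe set described above, and elav and pum in the second, beside probe sets that the annotation gives to other genes. The annotated probe sets of elav and pum stand on the second list too, beside other symbols.

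**Figure D2:**
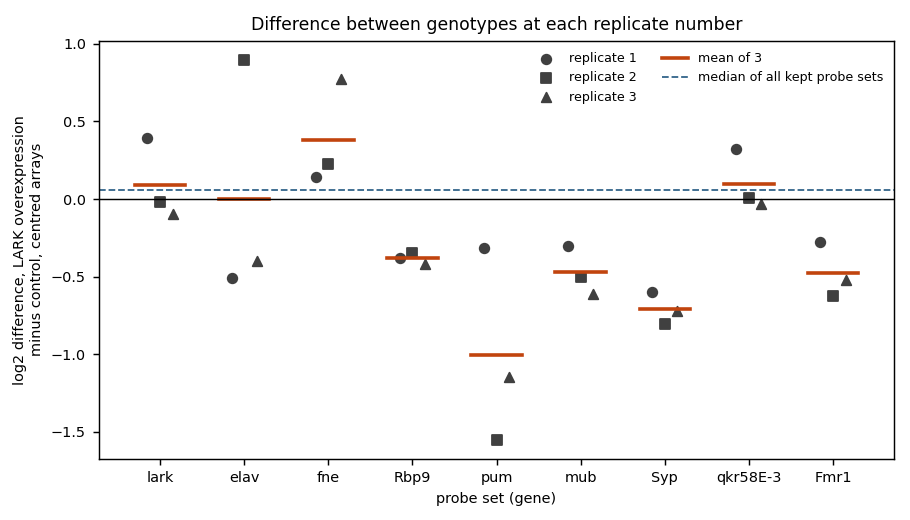
Log2 difference between the LARK overexpression and the control array of each replicate number, on centered arrays, for the 9 tested probe sets. Marker shapes give the replicate, the short bar is their mean and the dashed line is the median of all 9432 probe sets (0.06). Rbp9, pum, mub, Syp and Fmr1 have all 3 points below 0, and the points of elav lie on both sides.

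Set side by side, 1 of the 9 tested probe sets had a log2 difference above 0 and 8 below, while 43.8% of the 9432 lay above 0. Their median was -0.51, and that of all 9432 was -0.07. On centered arrays these medians were -0.38 and 0.06, lark and qkr58E-3 changed sign and elav stood at 0.00, and quantile normalization turned elav to 0.042, so the sign of these 3 genes depends on the scaling. The 5 genes lower at all 3 replicate numbers compare with 26.9% of all probe sets as deposited, and the same 5 remained on centered arrays, where the share was 19.8%. Fmr1 is among them although it exceeded 40 on control array 1 alone, and nothing is read from its direction or its p. It also counts among the 8 below 0 and in the medians. With a replicate block, the other 4 had an unadjusted p under 0.05, as did 20.2% of all probe sets. None of them had an adjusted p under 0.05 there (0.122 to 0.213), and neither did any other of the 9432. Block and centering narrowed the intervals, since both remove the scaling shared by arrays of the same number. The values describe these genes only, which were not drawn at random.

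**Figure D3:**
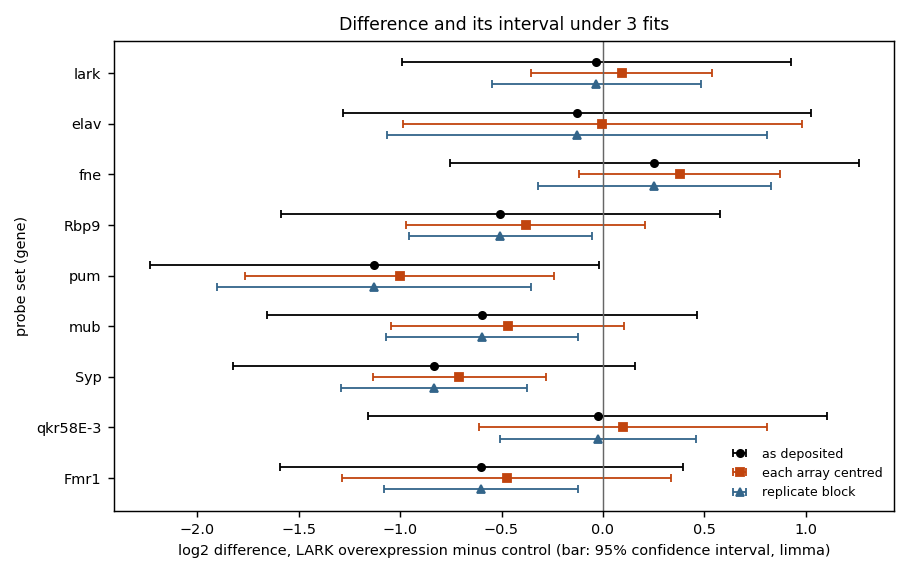
Log2 difference between LARK overexpression and control for the 9 tested probe sets, with its 95% confidence interval from limma, as deposited (circles), with each array centered (squares) and with a replicate block (triangles). The interval of pum lies below 0 in all 3 fits and that of Syp in 2 of them, while those of lark, elav, fne and qkr58E-3 include 0 throughout.

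Part of a list of neuronal markers was also lower with LARK overexpression. Of a list of 13 neuron genes, 11 were on the array by name with 14 probe sets above 40 on at least 1 array, 4 of them through control arrays alone. Of these, 10 lay below 0 and 4 above, with a median log2 difference of -1.15. The 4 kept through control arrays alone were VGlut, 143545_at of cac, and 146886_at and 146887_at of brp, and all lay below 0. The gene para, kept through 1 LARK overexpression array alone, lay above 0. The split and the median thus depend on the filter, and neither is read as a fall of the whole list. The genes nSyb and Gad1 fell by limma (adjusted p = 0.0357 and 0.0416), as they did on centered arrays. Neither passed with a replicate block (0.0856 and 0.0783), where none of the 9432 probe sets passed. Both passed when an intensity trend and a robust prior were added to the block (0.00328 and 0.00301), as did 6.05% of the 9432. VGlut passed too (adjusted p = 0.0233), but it was under 40 on all LARK overexpression arrays. It did not pass on centered arrays (0.0521) or with the block (0.0981), and passed with the trend and robust prior added (0.0102). Syn was lower without overlap between genotypes, as were 8.58% of the 9432 probe sets, at -1.43 on the log2 scale (adjusted p = 0.241 from limma). Probe set 144060_at of futsch lay at -1.20 (adjusted p = 0.405 from limma). On centered arrays 143545_at of cac passed (adjusted p = 0.0313 from limma), but it was under 40 on all LARK overexpression arrays. Not every neuron marker fell. The log2 differences of ChAT (0.37 and 0.21 at its probe sets) and Rdl (0.29) lay above 0. Those of nrv3 (-0.12) and 153032_at of futsch (-0.05) were near 0. Summed, the list made up 0.123 to 0.145% of the signal of a LARK overexpression array and 0.168 to 0.185% of that of a control array. Besides VGlut, all probe sets of brp and cac were under 40 on every LARK overexpression array. Fewer neurons in a head sample and less RNA per neuron cannot be told apart in such bulk RNA, and their part in the differences of pum, Syp, Rbp9, mub and Fmr1 was not tested. Nor was that of the 3′ to 5′ ratios of eIF-4a and actin, which likewise did not overlap between the genotypes.

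Markers of other cell types behaved differently. The 6 gut enzyme genes made up 0.00683 to 0.0976% of the signal with LARK overexpression, lowest on array 1, and 0.0031 to 0.00427% in the control, and all 6 exceeded 40 on LARK overexpression arrays alone. Photoreceptor genes had 0.801 to 0.976% and 0.918 to 1.10%, muscle genes 0.376 to 0.666% and 0.361 to 0.427%, fat body genes 1.32 to 1.54% and 1.31 to 2.03%, and glial genes 0.155 to 0.195% and 0.106 to 0.157%. All 4 of these ranges overlapped between the genotypes, whereas those of the neuron and gut lists did not. However, all 6 gut probe sets were kept through LARK overexpression arrays alone, and 4 of the 14 neuron ones through control arrays alone. No contrast between cell types is therefore drawn from these ranges. A sum follows its strongest signals, and single genes of 3 of these lists passed as higher with LARK overexpression: e of the glial list (5.82-fold, adjusted p = 0.0228 from limma), fln of the muscle list (0.0329), and Fbp1 (6.86-fold, 0.0431) and Cyp4g1 (0.0453) of the fat body list. Both fln and Cyp4g1 were above 40 only on LARK overexpression arrays 2 and 3. None of these 4 genes passed on centered arrays or with a replicate block, where no probe set on the array passed. Their part in the differences of the RNA-binding protein genes was not tested.

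Other genes for RNA-binding proteins were taken from a list of 54, of which 41 were found by symbol and 38 had a probe set above 40 on at least 1 array, 48 probe sets in all. The single call was qkr54B, a further KH-domain STAR protein gene and a relative of qkr58E-3. It read 8.60, 10.8 and 27.2 with LARK overexpression and 154, 62.5 and 87.3 in the control. Every LARK overexpression array was under 40 and every control array above it. The log2 difference was -2.79 (limma, SE 0.53, adjusted p = 0.0149), a size that rests on signals under 40, and with values under 40 set to 40 it was -1.24. The call ended with that floor, without a filter, with centered arrays (adjusted p = 0.0675), with quantile normalization, with a replicate block (0.110) and without control array 1. No probe set on the array passed with the floor or with the block alone. The call of qkr54B held when a robust prior and an intensity trend were added to the block (0.0192) and without LARK overexpression array 1 (0.0236). Between qkr54B and qkr58E-3, the difference in response was not tested.

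Of the 48 probe sets, 8 were lower without overlap between genotypes and 1 was higher, against 8.58% and 3.88% of all 9432. On centered arrays 15 were lower and 5 higher, against 12.2% and 13.9%. The largest of the lower ones after qkr54B were Sxl, the switch gene of sex determination, pasilla (ps), which encodes a KH-domain splicing regulator related to vertebrate Nova, and smg, whose product Smaug represses translation and destabilizes transcripts in the embryo. Probe set 143373_at of Sxl read 59.8, 88.8 and 113 with LARK overexpression and 294, 199 and 245 in the control. For the other, 144641_at, the values were 91.7, 61.3 and 47.3 against 224, 176 and 206. Both probe sets of Sxl thus had all LARK overexpression arrays below all control arrays, with log2 differences of -1.53 and -1.64 (adjusted p = 0.118 and 0.0853 from limma). Probe set 149559_at of ps read 58.9, 46.0 and 56 with LARK overexpression and 180, 119 and 185 in the control, that is, -1.57 on the log2 scale (adjusted p = 0.0952 from limma). The values of smg were 48.7, 32.0 and 43.1 against 143, 96.1 and 119, giving a difference of -1.54 (log2, adjusted p = 0.104 from limma). With centered arrays, ps, smg and 144641_at of Sxl passed, at adjusted p = 0.0497, 0.0314 and 0.0464, and so did qkr58E-2 (0.0415), which is named because its value was seen. The gene higher without overlap, likewise named after its value was seen, was brat, a translational repressor that acts with Pumilio in the embryo, with a log2 difference of 0.81 (adjusted p = 0.607 from limma).

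By group, the 8 KH-domain probe sets had a median log2 difference of -0.96, with 7 below 0, and the medians of the 18 RRM, 7 hnRNP and 15 translation and RNA decay probe sets were -0.13, -0.28 and -0.01. With centered arrays these were -0.83, -0.01, -0.16 and 0.11. The KH-domain and hnRNP groups each hold 1 probe set kept through control arrays alone, qkr54B and 153488_at of heph. In the translation and RNA decay group, orb was kept through 1 LARK overexpression array alone. The medians thus depend in part on the filter, and no contrast between these groups is drawn from them. The KH-domain group holds 2 probe sets of ps and 5 of its 8 belong to qkr genes or ps, so they are not independent genes. It also holds 2 of mask, at -1.07 and 0.37 as deposited. The KH-domain genes mub, Fmr1 and qkr58E-3 were counted apart from it, and stood at -0.60, -0.60 and -0.03 as deposited. The 48 probe sets together had a median of -0.16, with 17 above 0 and 31 below.

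**Figure D4:**
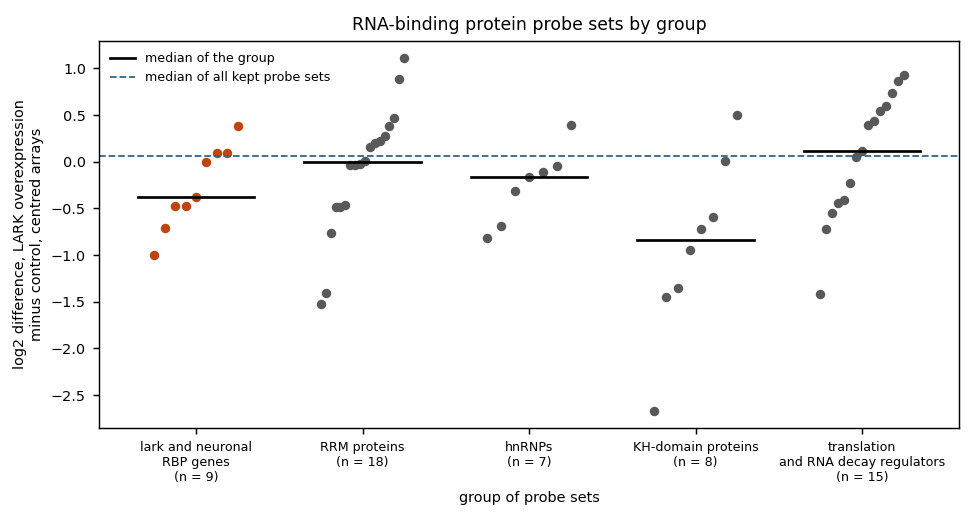
Log2 difference between LARK overexpression and control on centered arrays, for the 9 tested probe sets of lark and the neuronal genes and for 48 probe sets of other RNA-binding protein genes in 4 groups. Each point is a probe set, the bar is the group's median and the dashed line is the median of all 9432 probe sets. The KH-domain group has the lowest median, at -0.83, and the lowest point is qkr54B, which was above 40 on control arrays alone. The KH-domain genes mub, Fmr1 and qkr58E-3 are plotted with lark and the neuronal genes.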

How the data were processed

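RNA from adult heads was measured on 6 Affymetrix Drosophila genome arrays, 3 per genotype. The authors deposited linear signal intensity values; the submitters' processing notes name MAS5 with no version, whereas the paper's methods describe GCRMA. The experiment files of the arrays gave the day of hybridization only (unit other, deposited as text). Genes were matched by the symbol of the platform annotation.

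Values were converted to log2, and control probe sets and those at most 40 on all arrays were left out, after the study's methods. The test between genotypes was that of limma (version 3.58.1, R 4.3.3), two-sided, with genotype as the only term and Benjamini-Hochberg adjustment over 9432 probe sets; 3 arrays per genotype limit the precision. Centering subtracts the median log2 value of the kept probe sets from each array. Levels of different probe sets were not compared. Replicate numbers pair the arrays by day, and deviations of same-numbered arrays from their genotype means correlated at 0.0936, 0.172 and 0.0256. The fit was tested on simulated data.

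The genes, lists and alternatives were chosen with earlier results of these data known. All probe sets of the 10 genes are named; of the other RNA-binding protein genes, those past the test and the 4 probe sets of largest difference without overlap are named. Leaving out arrays after centering was added after the data were seen. No genome build is stated for the array, so no coordinates are given, and sequences were not used here. The authors' own comparison values were not used.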

Additional observations from a re-analysis of the deposited data

How the results depend on the processing

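The precision is limited by the dim signals of elav, pum and Fmr1 and by 3 arrays per genotype. No alternative called lark, whose sign changed: 0.092 with each array centered, and from -0.29 to 0.15 when 1 array was left out, or from -0.02 to 0.16 on centered arrays (positive values were 0.15, 0.05 and 0.09 without LARK overexpression replicates 2 and 3 and control replicate 1, and 0.052, 0.11, 0.12, 0.13 and 0.16 after centering). For elav the difference was 0.042 after quantile normalization and ranged from -0.78 to 0.27, or from -0.48 to 0.30 on centered arrays, when 1 array was left out (0.06, 0.27, 0.12, and 0.079, 0.020, 0.17 and 0.30 after centering, were positive). That of qkr58E-3 was 0.10 on centered arrays and ranged from -0.51 to 0.36, or from -0.17 to 0.29 after centering, over the left-out arrays (0.33, 0.11, 0.36, and 0.29, 0.18, 0.26 and 0.085 after centering, were positive). Rbp9, pum, mub, Syp and fne kept their direction under every alternative, and so did Fmr1 except that it was at 0.00 with a floor at 40. Their sizes moved when 1 array was left out: from -0.87 to -0.13 for Rbp9, -1.64 to -0.65 for pum, -0.95 to -0.26 for mub, -1.10 to -0.58 for Syp, -0.86 to -0.32 for Fmr1 and 0.054 to 0.58 for fne. The number of the 9 probe sets past the test was 0 to 0 when 1 array was left out and 0 to 1 with centering as well, where pum passed without LARK overexpression replicate 1; it was 1 when the replicate block was joined by a robust prior and an intensity trend (Syp). At an unadjusted p under 0.05 it was 1 as deposited and 5 with the replicate block (Fmr1 included), which changed no call among the 9. Of the 48 other probe sets 1 passed as deposited, 4 with centered arrays or quantile normalization, 0 with a floor at 40, without a filter or with the replicate block, 11 for the block with trend and robust prior, and 0 to 4 when 1 array was left out (0 to 7 with centering). Over all probe sets, 146 passed, 0 with a floor at 40 (811 at an unadjusted p under 0.05), 12 without a filter, 0 with the replicate block (1903 at an unadjusted p under 0.05), 571 with trend and robust prior added, and 34 to 465 when 1 array was left out (0 to 759 with centering, among them 16 and 3 without LARK overexpression replicates 2 and 3). The highest count, in both forms, was without LARK overexpression replicate 1, and the lowest as deposited without control replicate 1. The cause of these changes was not tested.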
